A study of Mus musculus with 12 samples.

Results

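The TRIM family holds ubiquitin ligases built on a tripartite motif, which is a RING domain, a B-box domain and a coiled coil. Its members were taken as the genes whose symbol is Trim followed by a number and, in some, a letter, and for which a probe exceeded background clearly on 4 or more of the 12 arrays. This gave 44 TRIM genes, with 59 probes, among 19802 genes and 24287 probes in all. The array carried 64 TRIM genes, and 20 did not pass this filter. The cells were primary microglia, macrophages that reside in the brain, isolated from mixed glia of newborn C57BL/6 mice. They were given supernatant of Th1 cells (4 arrays), supernatant of Th17 cells (4 arrays) or T cell medium alone (4 arrays, labelled untreated), and RNA was taken at 16 h. Both supernatants came from T cells differentiated in culture and hold whatever those cells had released, so no single cytokine was tested. Each group has 1 array from each of experiments 12, 13, 14 and 16, and an array is named by its group and experiment, as in Th17 13.

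TRIM ligases attach ubiquitin, or relatives such as ISG15 and SUMO, to target proteins, and the domain behind the coiled coil, most often a PRY-SPRY domain, chooses the target. Many are induced by interferons and act in antiviral defence, either by binding viral particles or by tuning the sensors of viral RNA and DNA and the kinases below them. Others have no immune role and work at chromatin, centrosomes, microtubules or synapses. Microglia respond strongly to interferon-gamma, the signature cytokine of Th1 cells.

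Interferon-induced genes are often driven by an interferon-stimulated response element (ISRE), bound by interferon regulatory factors, or by a gamma-activated sequence (GAS). The ISRE core (GAAA, any 2 bases, GAAA) and the GAS (TTC, any 3 bases, GAA) were searched on both strands in the 250 bases before each annotated start site of the RefSeq promoter table (build GRCm38.p6). The table held 32 of the 44 TRIM genes. The ISRE core occurred in 3 of the 9 TRIM genes with a window that were called higher after Th1 supernatant (Trim30a, Trim30d and Trim12c), in 0 of the 3 called lower, and in 1 of the 20 not called, Trim26. Over all genes of the table, 3.46% held it (936 of 27025). The GAS occurred in 2 of the 32 TRIM genes, Trim45 and Trim46, neither of them called, and in 8.13% of all genes (2197 of 27025). These matches describe letters in a window and were given no test. The stretches below show 120 bases before the start site, 5′ to 3′, for the genes with a match, for Trim12a, which is like Trim12c, and for Trim30b, which changed most. Capitals mark the ISRE core, which reads here as TTTC, any 2 bases, TTTC, since every match lay on the opposite strand. Of the annotated Trim30a starts, the one with the match is shown.
Trim30a (chr7:104465194-104465313, - strand): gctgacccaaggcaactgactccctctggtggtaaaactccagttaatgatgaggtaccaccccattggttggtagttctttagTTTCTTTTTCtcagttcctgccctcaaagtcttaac
Trim30d (chr7:104507850-104507969, - strand): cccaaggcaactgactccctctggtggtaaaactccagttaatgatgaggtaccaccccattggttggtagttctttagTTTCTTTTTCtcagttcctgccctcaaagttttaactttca
Trim12c (chr7:104353350-104353469, - strand): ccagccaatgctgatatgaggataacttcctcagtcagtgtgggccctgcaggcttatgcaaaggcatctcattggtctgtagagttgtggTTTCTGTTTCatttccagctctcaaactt
Trim12a (chr7:104315496-104315615, - strand): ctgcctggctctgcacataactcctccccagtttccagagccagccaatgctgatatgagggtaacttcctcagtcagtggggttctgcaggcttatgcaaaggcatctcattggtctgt
Trim30b (chr7:104358647-104358766, - strand): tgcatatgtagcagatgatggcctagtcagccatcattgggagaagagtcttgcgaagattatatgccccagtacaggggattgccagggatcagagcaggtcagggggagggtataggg
Trim26 (chr17:36836966-36837085, + strand): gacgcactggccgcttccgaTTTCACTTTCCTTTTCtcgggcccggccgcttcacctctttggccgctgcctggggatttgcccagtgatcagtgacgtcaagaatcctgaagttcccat
The Trim30a and Trim30d windows were identical at 226 of 245 positions (92.2%) when shifted by 5 bases, and the Trim12a and Trim12c windows at 172 of 210 (81.9%) when shifted by 40 bases. In Trim12c the match lay 20 to 29 bases before the start site, within the 40 bases that have no partner in the Trim12a window. Bases after the annotated Trim12a start site were not searched, so a match there cannot be told from these windows. The Trim26 stretch, which ends 61 bases before the start site, holds 2 overlapping matches. Trim3, Trim14 and Trim36 were not in the table.

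Among the 12 arrays, 54.49% to 64.99% of probes were well above background, and the 75th percentile of the signal before scaling lay between 1199.6 and 2214.5 intensity units, highest on Th17 13. All 13 microglia markers on the array were measured on every array, among them Itgam, Csf1r and Tyrobp. Their summed signal was 1181400 to 1332800 on Th1 arrays, 1320900 to 1824700 on Th17 arrays and 1300800 to 1729400 on untreated arrays. Relative to untreated microglia, 3 of these markers were called higher after Th1 supernatant, P2ry12 (1.61), Aif1 (1.18) and Ptprc (1.04), and 4 lower, Cx3cr1 (-6.31), Trem2 (-2.50), Fcrls (-2.41) and Tmem119 (-2.29). Of the T cell markers, 5 of 9 were measured, and Cd3d, Cd3g, Cd247 and Cd2 were not well above background on any array. The summed signal of the 5 measured lay between 7440 and 8609 on Th1 arrays, between 6518 and 11059 on Th17 arrays and between 9799 and 11195 on untreated arrays. Among these 5, Lck was called higher (2.35) and Cd28 (-5.28) and Cd5 (-1.31) lower in Th1 than in untreated microglia. Of 7 neuron markers 5 were measured, and their summed signal, most of it from Snap25, was 4243 to 5599 on Th1 arrays, 5885 to 10817 on Th17 arrays and 6115 to 16240 on untreated arrays. Their mean log2 signal overlapped, at 6.46 to 7.43 on Th1 arrays, 6.74 to 7.49 on Th17 arrays and 6.79 to 7.75 on untreated arrays. Among them Syn1 was called higher (1.78) and Rbfox3 lower (-2.44) in Th1 than in untreated microglia. The summed signals of astrocyte, oligodendrocyte and fibroblast markers overlapped between Th1 and untreated, but single markers were called. Of the oligodendrocyte markers, Cnp and Mag were called higher and Cspg4 and Mbp lower after Th1 supernatant. The astrocyte marker Fabp7 was called lower (-2.24). The part of other cells in the changes below was not tested. A change in RNA level in these cultures cannot be told apart from a change in the share of cells that carry it.

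Th1 supernatant raised 11 of the 44 TRIM genes and lowered 4 relative to untreated microglia, at an adjusted p under 0.01 and a change of more than 2-fold in limma's moderated test. Over all 19802 genes, 7.49% were called higher and 7.88% lower by this rule. Most of the TRIM genes that rose lie together on chromosome 7 and were placed in the PRY-SPRY domain group. Those that fell, Trim59, Trim37, Trim36 and Trim24, were each placed in a different domain group. The median change was 0.16 on the log2 scale over the TRIM genes and -0.06 over all genes. The TRIM genes ranged from -2.61 to 5.63. In 14 of the 15 called genes the Th1 and untreated arrays did not overlap, and the exception was Trim9. This was so of 98.3% of all genes called (2991 of 3044), so the share among the TRIM genes (93.3%) was near that of called genes in general.

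**Figure D1:**
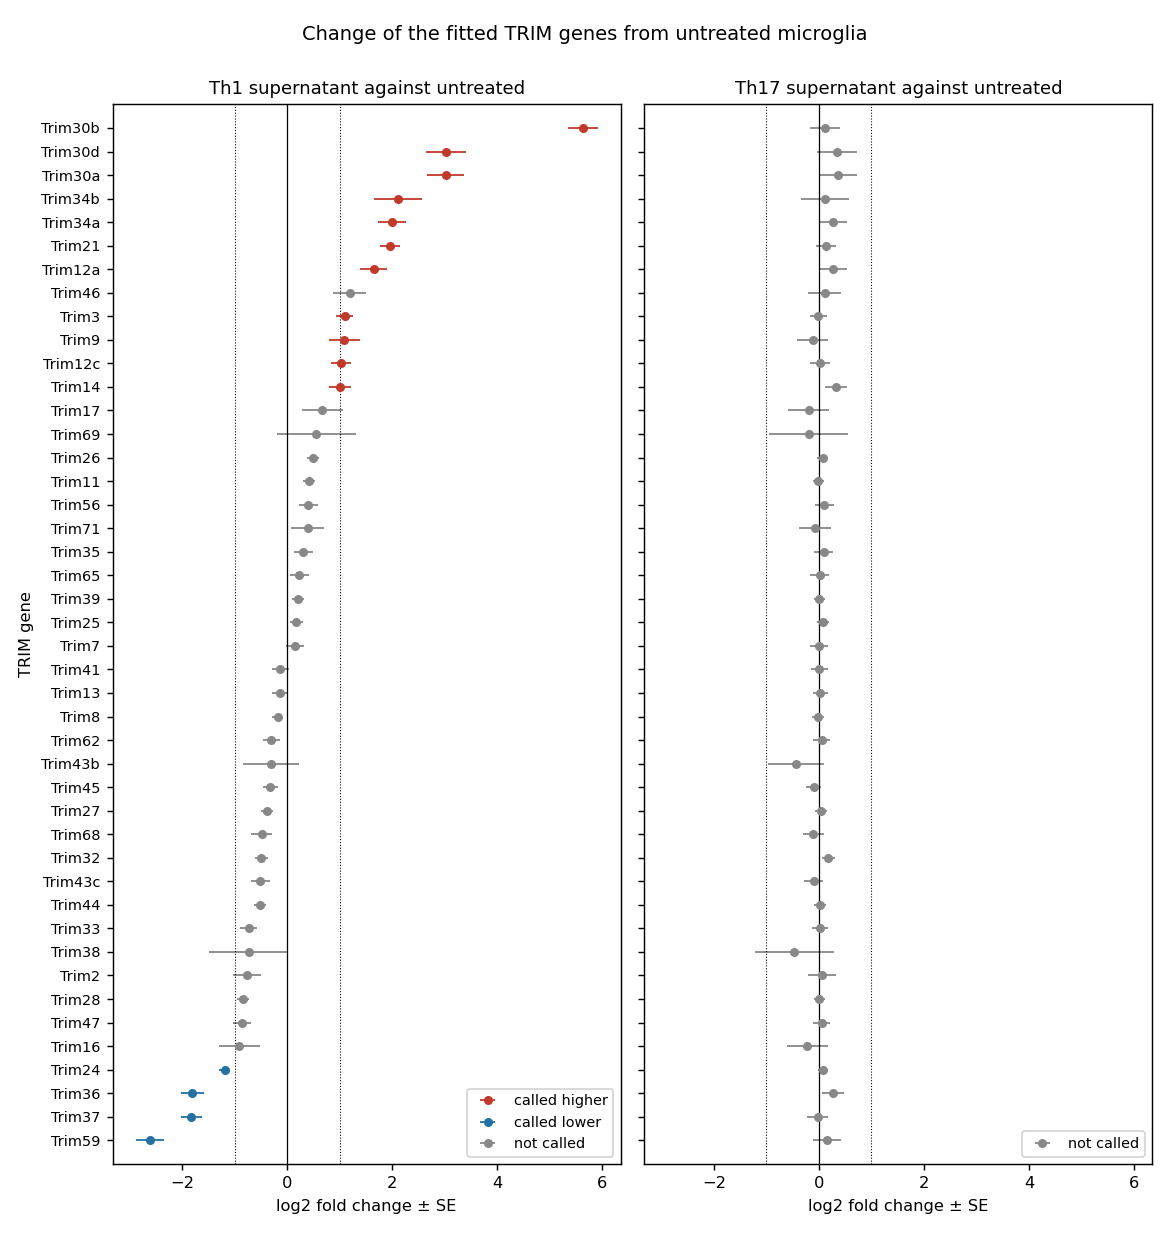
Log2 fold change ± SE of the 44 fitted TRIM genes (rows) after Th1 supernatant (left panel) and after Th17 supernatant (right panel), each against untreated, ordered by the Th1 change; dotted lines mark 2-fold. The Th1 changes run from -2.61 to 5.63 with 11 genes called higher and 4 called lower, and the Th17 changes lie between -0.47 and 0.37 with none called.

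On chromosome 7, 10 TRIM genes lie close together, in the RefSeq order Trim6, Trim34a, Trim5, Trim12a, Trim34b, Trim12c, Trim30b, Trim30c, Trim30a and Trim30d. Of the 7 that were fitted, 7 were called higher after Th1 supernatant, against 4 of the 37 fitted TRIM genes outside this run. The 7 include Trim30b, which could enter the fit only by being high on the Th1 arrays. These genes arose by duplication and are alike in sequence, so signal may be shared between probes of neighbouring copies, and they are not 7 independent observations. Trim6 was on the array but did not pass the filter, and Trim5 and Trim30c were not analysed here.

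Trim30b showed the largest change of the family. Its signal was 1182, 642, 1005 and 405 intensity units on the Th1 arrays of experiments 12, 13, 14 and 16, 21.2 on Th17 13, and at the floor of 15 on the other Th17 arrays and on all untreated arrays. It was well above background on 4 of 4 Th1 arrays, on 1 Th17 array and on no untreated array, and so it passed the filter through the group in which it was high. The groups were far apart. Against the lowest signal that counted as above background on the untreated arrays, the change was 42.8-fold. Its size depends on the processing, since the untreated arrays were at the floor. Over 27 alternatives the log2 fold change ran from 2.71 to 7.06. No p is given, since the gene entered the fit through its Th1 signal.

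Trim30a, which in mice restrains Toll-like receptor signalling by promoting loss of the adaptors TAB2 and TAB3, gave 17160, 15508, 18375 and 12146 units on the Th1 arrays, 1622, 4671, 3136 and 1585 on the Th17 arrays and 1705, 2131, 2874 and 1304 on the untreated arrays. Every Th1 array lay far above the others, Th1 16 was the lowest of its group, and Th17 13 was the highest array outside the Th1 group. The log2 fold change was 3.02 ± 0.35 (adjusted p = 3.72e-05). Trim30d also had Th1 16 as its lowest Th1 array and Th17 13 as its highest array outside the Th1 group, with 19454, 17301, 18862 and 12439 units on Th1 arrays, 1526 to 5375 on Th17 arrays and 1891, 2460, 3042 and 1242 on untreated arrays (3.03 ± 0.38, adjusted p = 6.4e-05). These are the 2 genes whose promoter windows were 92.2% identical.

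Trim34a and Trim34b belong to the group whose primate relative TRIM34 takes part in restriction of retroviruses. Trim34a read 5727, 5548, 5563 and 3915 units on the Th1 arrays, 1346, 2606, 1607 and 1023 on the Th17 arrays and 1252, 1554, 1522 and 917 on the untreated arrays. The log2 fold change over untreated was 2.00 ± 0.27 (adjusted p = 0.000119), and its other probe gave 1.66 ± 0.16. Values of further probes come from a fit of all kept probes. Trim34b read 701, 774, 732 and 339 units after Th1 supernatant, 144, 319, 154 and 75.2 after Th17 supernatant and 173, 170 and 93.7 in untreated microglia of experiments 13, 14 and 16. Its spot on untreated 12 was left out by the scanner's own outlier marks, so its change of 2.11 ± 0.46 (adjusted p = 0.00366) rests on 3 untreated arrays. Both genes had Th1 16 as the lowest Th1 array, and in neither did the Th1 arrays overlap the other groups.

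Trim12a and Trim12c are mouse relatives of primate TRIM5, which recognises incoming retroviral capsids. Trim12a gave 12791, 11510, 12097 and 11648 units on the Th1 arrays, 4366, 6177, 5398 and 3116 on the Th17 arrays and 3770, 4470, 5447 and 2308 on the untreated arrays. Its Th1 arrays were nearly equal, so that the change by experiment, 1.15 to 2.34, varied with the untreated array (1.65 ± 0.26, adjusted p = 0.000349). Trim12c read 1697, 1518, 1604 and 1536 units in Th1, 599 to 1010 in Th17 and 779, 908, 962 and 556 in untreated microglia, and its change of 1.02 ± 0.19 was close to the 2-fold limit (adjusted p = 0.00108). The other Trim12c probes gave larger changes, 1.36 ± 0.18 and 2.67 ± 0.35. The 3 probes thus placed the rise between 1.02 and 2.67, and which of the copies each one reads was not tested.

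**Figure D2:**
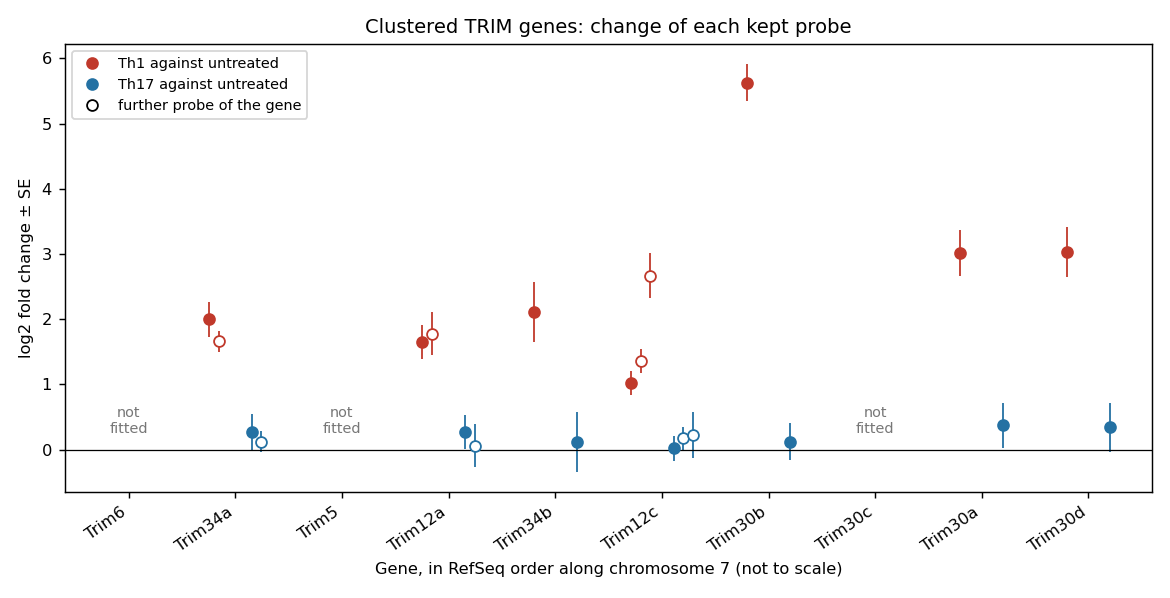
Log2 fold change ± SE of each of the 11 kept probes of the chromosome 7 run, with genes in RefSeq order on the x axis; filled points are the probe used for the gene and open points are further probes. All Th1 changes (left of each pair) are 1.02 or higher, and the Th17 changes (right) lie near 0.

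Outside the run, 4 TRIM genes were called higher, Trim21, Trim14, Trim3 and Trim9. Of these, Trim21 and Trim3 also lie on chromosome 7. Trim21, a cytosolic antibody receptor that marks antibody-coated virus for destruction, read 7812, 6731, 7764 and 5686 units on the Th1 arrays, 1656, 2284, 2708 and 1476 on the Th17 arrays and 1782, 1706, 2131 and 1578 on the untreated arrays. The Th1 arrays lay well clear of the rest, and the change was 1.96 ± 0.19 (adjusted p = 1.16e-05). Trim14, which lacks the RING domain and serves as an adaptor at mitochondria in antiviral signalling, read 231, 168, 141 and 166 units on the Th1 arrays, 105, 146, 109 and 80.6 on the Th17 arrays and 105, 91.7, 66.6 and 85.4 on the untreated arrays. The Th1 arrays were above all untreated arrays but overlapped Th17 13, and the change of 1.01 ± 0.21 sat at the 2-fold limit (adjusted p = 0.00214).

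Trim3 and Trim9 are best known from neurons, Trim3 as a ligase of the synapse with NHL repeats and Trim9 as a ligase of axon branching that binds the netrin receptor DCC. Trim3 gave 6877, 5087, 6359 and 5279 units on the Th1 arrays, 3427, 2658, 2173 and 2741 on the Th17 arrays and 2815, 2609, 3223 and 2364 on the untreated arrays (1.10 ± 0.16, adjusted p = 0.000191). Its groups did not overlap, and its second probe gave 1.00 ± 0.13, just short of the 2-fold limit. Trim9 was dim, with 54.9, 59.4, 91.8 and 34.9 units on Th1 arrays, 26.6, 36.0, 18.5 and 20.2 on Th17 arrays and 25.5, 25.1, 35.7 and 22.1 on untreated arrays. Th1 16 lay below untreated 14, so the groups overlapped, and 3 of 4 untreated arrays were above background. Its change of 1.09 ± 0.29 passed the threshold narrowly (adjusted p = 0.00978) and was 0.97 with slide as a block, and it is the least secure of the calls. Of the measured neuron markers, Syn1 was called higher and Rbfox3 lower on the Th1 arrays, as given above.

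Of the genes that fell, Trim59 fell most. It encodes a ligase anchored in the membrane of the endoplasmic reticulum. Its signal was 441, 432, 266 and 623 units on the Th1 arrays, 2571, 2885, 2615 and 3527 on the Th17 arrays and 2700, 2769, 1638 and 3611 on the untreated arrays. All Th1 arrays lay far below the rest, with a change of -2.61 ± 0.27 (adjusted p = 1.76e-05) that was alike in the 4 experiments (-2.68 to -2.53), and its second probe gave -2.60 ± 0.25.

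Trim37, a ligase with a MATH domain that acts at peroxisomes and centrosomes, read 129, 190, 137 and 247 units on the Th1 arrays, 563, 608, 518 and 674 on the Th17 arrays and 588, 647, 482 and 694 on the untreated arrays. The change was -1.82 ± 0.20 (adjusted p = 2.72e-05) with no overlap. Trim36, a microtubule-associated ligase, read 55.1, 86.1, 73.1 and 115 units in Th1, 309, 366, 311 and 347 in Th17 and 314, 305, 201 and 306 in untreated microglia. It fell by 1.80 on the log2 scale (SE 0.21, adjusted p = 4.5e-05), and untreated 14 lay apart from the other untreated arrays but still above every Th1 array.

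Trim24, Trim28 and Trim33 belong to the transcriptional branch of the family, with a PHD finger and a bromodomain. All 3 had negative changes at an adjusted p under 0.01, and Trim24 alone passed the 2-fold limit. Trim24 read 728, 677, 624 and 663 units on the Th1 arrays, 1817, 1603, 1594 and 1458 on the Th17 arrays and 1521, 1598, 1409 and 1597 on the untreated arrays. The arrays within each group were close together, and the change was -1.19 ± 0.10 (adjusted p = 2.83e-06), with -1.21 ± 0.13 for the other probe. Trim28, the corepressor of KRAB zinc finger proteins, changed by -0.84 ± 0.11 (adjusted p = 8.43e-05) and Trim33, a regulator of SMAD4, by -0.73 ± 0.16 (adjusted p = 0.00292).

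**Figure D3:**
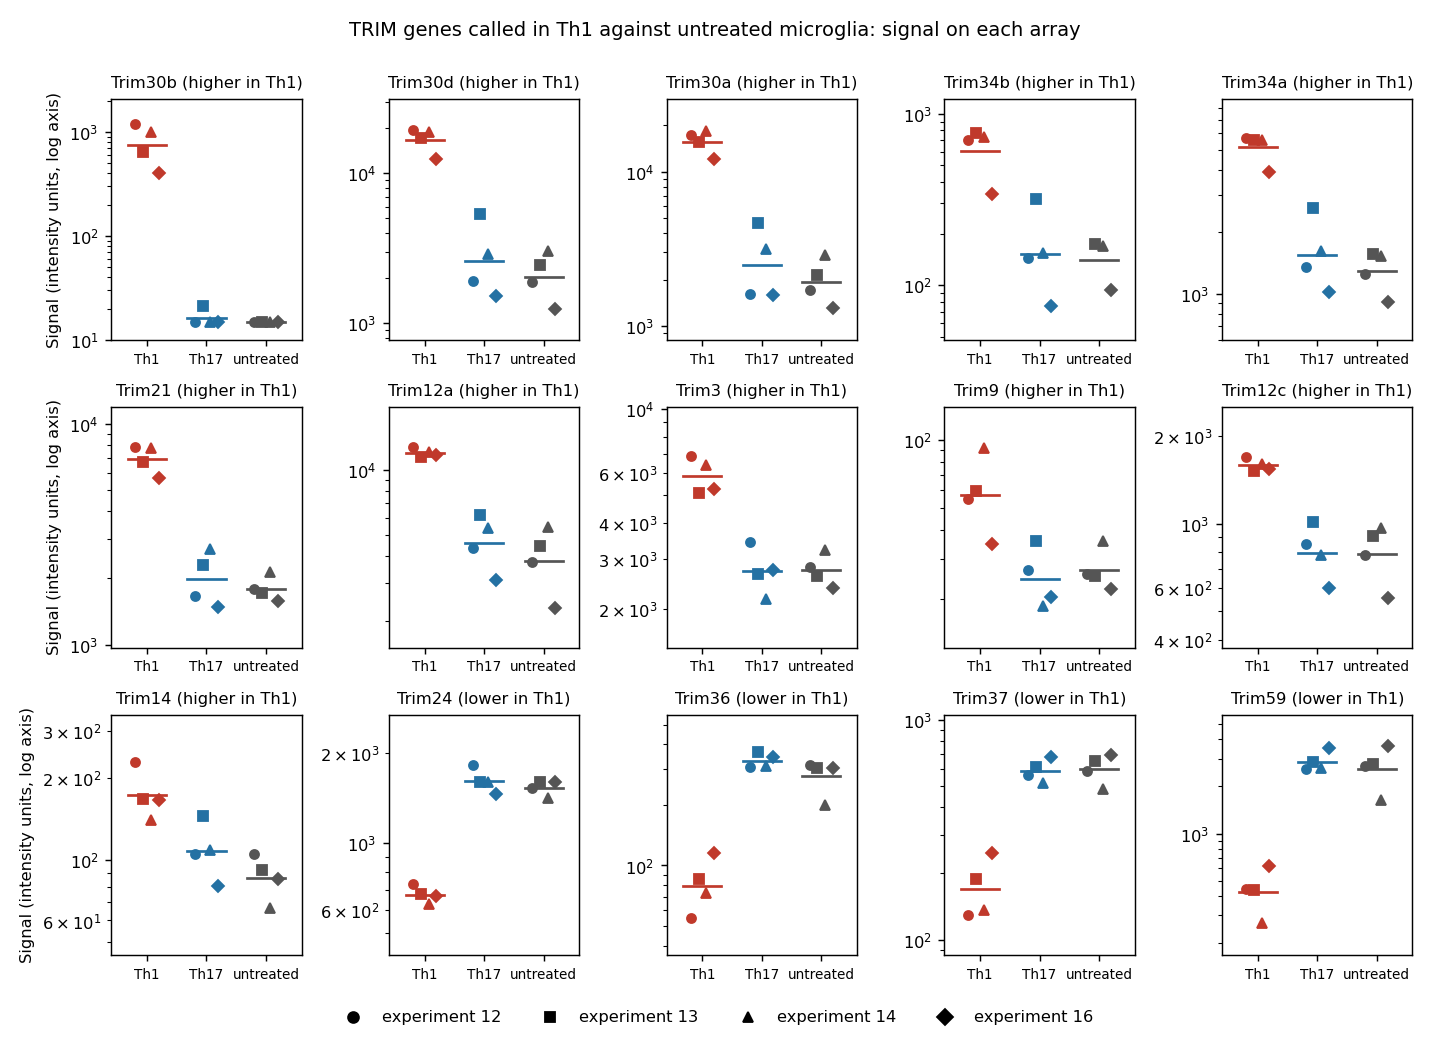
Signal in intensity units (log axis) on each array of the 15 TRIM genes called after Th1 supernatant against untreated, with Th1, Th17 and untreated from left to right; symbols mark the experiment and lines the group mean of log2 signal. In 14 panels the Th1 points lie wholly above or below the untreated points, and in the Trim9 panel Th1 16 (34.9) lies under untreated 14 (35.7).

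The genes were also grouped by domain, each in 1 group, by gene name and without a check against protein sequences. Genes without a RING domain or with a COS box were counted apart, whatever domain they end in. The counts of the PRY-SPRY group therefore do not cover every gene with a SPRY domain. In that group, 8 of the 25 fitted genes were called higher and 0 lower, with a median change of 0.31. Over all genes, 7.49% were called higher and 7.88% lower, with a median of -0.06. Of these 8 genes, 7 belong to the chromosome 7 run of like copies, among them Trim30b, which entered the fit through its Th1 signal. The other, Trim21, lies outside the run on the same chromosome. The count is therefore not a result about the domain. Of the 4 NHL genes 1 was called, Trim3. Of the 3 genes with a COS box and fibronectin repeats, Trim9 was called higher and Trim36 lower, and Trim46 had a change of 1.19 ± 0.32 that just missed the threshold (adjusted p = 0.0106). Trim46 read 104, 64.6, 158 and 132 units on the Th1 arrays and 36.2, 36.6, 74.0 and 52.8 on the untreated arrays, and each experiment had the higher value in Th1. With experiment as a replicate block it was called (adjusted p = 0.00034). Of the 3 genes without a RING domain Trim14 was called, and the single MATH gene (Trim37) and 1 of 2 transmembrane genes (Trim59) were called lower. The filamin-repeat gene Trim45 and both measured genes with no further domain, Trim8 and Trim56, were not called. The 3 genes with a COS box and an acidic tail, Trim54, Trim55 and Trim63, did not pass the filter.

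Among the 29 uncalled TRIM genes, 7 had an adjusted p under 0.01 with changes of less than 2-fold. These were Trim26 (0.49) and Trim11 (0.42) with positive changes, and Trim32 (-0.49), Trim44 (-0.52), Trim33 (-0.73), Trim28 (-0.84) and Trim47 (-0.86) with negative ones. Trim26, which targets the transcription factor IRF3 and holds the overlapping ISRE cores shown above, read 9038, 7901, 7944 and 7320 units on the Th1 arrays and 6361, 5235, 6015 and 5312 on the untreated arrays, without overlap. The remaining 22, at an adjusted p of 0.01 or above, had changes of -0.91 to 1.19. They were Trim2, Trim7, Trim8, Trim13, Trim16, Trim17, Trim25, Trim27, Trim35, Trim38, Trim39, Trim41, Trim43b, Trim43c, Trim45, Trim46, Trim56, Trim62, Trim65, Trim68, Trim69 and Trim71. Trim25, the ligase that activates the RNA sensor RIG-I and an interferon-induced gene in many cells, was among them. It read 22533, 18866, 23257 and 21613 units in Th1, 17816, 19536, 23167 and 20118 in Th17 and 16975, 17495, 21760 and 20026 in untreated microglia, and these groups overlapped (0.18 ± 0.12, adjusted p = 0.242). For Trim56, a ligase that acts on STING signalling, the change was 0.40 ± 0.18 (adjusted p = 0.0855). Among the 14 genes with several probes, no gene had probes of opposite sign in Th1 against untreated. In Trim16, Trim45 and Trim47, however, a second probe passed the call as lower (-1.18, -1.02 and -1.04) where the brighter probe did not.

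Just inside the filter, Trim17, Trim38 and Trim69 were above background on 4 arrays, and just outside it Trim29 and Trim40 were above background on 3. Of the 20 genes left out, 11 were above background on no array (Trim10, Trim31, Trim50, Trim52, Trim54, Trim55, Trim58, Trim61, Trim63, Trim72 and Trim80). The other 9 were Trim6, Trim15, Trim29, Trim40, Trim42, Trim60, Trim66, Trim67 and Trim75. Of the 44 fitted genes, 36 were above background on all 12 arrays, and Trim30b alone passed only through the Th1 arrays.

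Th17 supernatant changed none of the 44 TRIM genes at the threshold. By limma, 0 were called higher and 0 lower, and 0 reached an unadjusted p under 0.05. Over all genes, 0% were called in either direction, and 325 of 19802 had an unadjusted p under 0.05. The changes ran from -0.47 (Trim38, SE 0.75) to 0.37 (Trim30a, SE 0.35), with a median of 0.03. The smallest p was that of Trim14 (0.32 ± 0.21, adjusted p = 1). The Th1 and Th17 comparisons share the same 4 untreated arrays.

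The Th17 group was not uniform for the chromosome 7 genes. On Th17 13 the signals of Trim30a (4671), Trim30d (5375), Trim34a (2606) and Trim34b (319) were the highest of the Th17 group and above every untreated array. The same held for Trim12a (6177) and Trim12c (1010), whereas Trim21 was highest on Th17 14 (2708). Among the Th17 and untreated arrays Trim30b was above background on Th17 13 alone. Isg15 and Irf7, well-known interferon-induced genes, also had their highest Th17 values on that array, 43690 and 3349 units, against 4022 to 20500 and 268 to 1296 on the other Th17 arrays. Untreated 14 in turn had the highest untreated values of Trim30a, Trim30d, Trim12a, Trim12c and Trim21, as of Isg15 (24090) and Irf7 (1236). Trim34a (1554) and Trim34b (173) were instead highest on untreated 13. The Th17 and untreated groups overlapped in each of these TRIM genes, and what made these arrays differ was not tested.

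The Th1 and Th17 arrays were also compared directly, which tests the difference between both responses. Here 9 TRIM genes were called higher in Th1 and 4 lower, beside 6.89% and 7.91% of all genes. Trim30b (5.51 ± 0.28), Trim30d (2.69 ± 0.38), Trim30a (2.66 ± 0.35), Trim34b (1.99 ± 0.42), Trim21 (1.82 ± 0.19), Trim34a (1.73 ± 0.27), Trim12a (1.38 ± 0.26), Trim9 (1.22 ± 0.29) and Trim3 (1.11 ± 0.16) were higher. Trim59 (-2.77 ± 0.27), Trim36 (-2.06 ± 0.21), Trim37 (-1.79 ± 0.20) and Trim24 (-1.26 ± 0.10) were lower. Trim30b aside, the adjusted p of these 13 genes lay between 2.09e-06 (Trim24) and 0.00557 (Trim9). Trim9 was again uncertain, since Th17 13 (36.0) lay above Th1 16 (34.9), and it lost this call under 12 of 27 alternatives. Trim12c (1.00 ± 0.19, adjusted p = 0.00129) did not exceed 2-fold, and Trim14 (0.69 ± 0.21, adjusted p = 0.0192) did not pass the adjusted p, so a difference between the responses was not shown for Trim14. The other Trim12c probes were called higher, at 1.19 ± 0.18 (adjusted p = 0.00029) and 2.45 ± 0.35 (adjusted p = 0.000188). The median over the TRIM genes was 0.13, beside -0.04 over all genes.

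Experiments and slides both hold several groups. In all 15 called genes the Th1 change had the same sign in every experiment and within each of the 3 slides that gave a value. These genes were chosen by their call on these same arrays. In the 14 genes whose groups did not overlap, the equal sign follows from the lack of overlap and adds no support. The share over all called genes was not counted. Trim30b entered the fit through its Th1 signal, and its untreated arrays were at the floor. Within slides the changes were 6.30, 5.74 and 4.75 for Trim30b, 3.17, 2.55 and 3.22 for Trim30a and 2.16, 1.76 and 1.85 for Trim21. They were -2.63, -2.27 and -2.53 for Trim59 and -1.10, -1.12 and -1.27 for Trim24. The widest relative spread was in Trim12a (1.64, 1.12 and 2.34), Trim12c (1.01, 0.70 and 1.47) and Trim36 (-2.49, -1.34 and -1.42). With slide as a block, 10 TRIM genes were called higher and 4 lower.

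Several relatives carry all or parts of the tripartite architecture under other names, and 2 of the 9 fitted were called higher after Th1 supernatant, 0 lower. Pml, the organiser of PML nuclear bodies, read 11650, 8288, 8591 and 8331 units on the Th1 arrays, 2458, 2946, 3081 and 1949 on the Th17 arrays and 2139, 1960, 2430 and 2032 on the untreated arrays (2.10 ± 0.16, adjusted p = 2.18e-06). Rnf135, also called Riplet, a ligase of RIG-I, read 4563, 3828, 4184 and 2607 units on Th1 arrays and 1552, 1408, 2030 and 1168 on untreated arrays (1.30 ± 0.20, adjusted p = 0.000322). In both, the Th1 arrays lay above all others. Of 11 genes of the PML nuclear body, 4 were called higher, which were Sp100 (2.46 ± 0.19), Sp140 (2.45 ± 0.17), Daxx (2.16 ± 0.19) and Pml, and the list had a median of 0.55.

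The pathways in which TRIM ligases act were described by counts, beside the median of -0.06 and the called shares of 7.49% and 7.88% over all genes. Of 19 genes for ubiquitin activation and conjugating (E2) enzymes, 0 were called higher and 1 lower, Ube2c (-1.92 ± 0.27), the E2 enzyme of the anaphase-promoting complex, with a median of -0.07. Of 21 genes of ISG15 and SUMO conjugation, 6 were called higher, led by Isg15 itself (5.14 ± 0.76), the ISG15 protease Usp18 (4.67 ± 0.92), the mouse ISG15 ligase Herc6 (3.28 ± 0.34) and the ISG15-activating enzyme Uba7 (2.25 ± 0.25). Their median was 0.05, and 15 were not called. Of 23 genes of RNA and DNA sensing, 9 were called higher and 0 lower (median 0.73), led by Irf7 (5.81 ± 0.78), the RIG-I-like receptors Dhx58 (3.38 ± 0.35) and Ifih1 (2.90 ± 0.33), and the muramyl peptide sensor Nod2 (3.05 ± 0.28).

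Of 27 other ligases of these pathways, 10 were called higher and 2 lower (median 0.26). Dtx3l (2.80 ± 0.27) and its partner Parp9 (2.58 ± 0.26), which act together in DNA damage and interferon responses, rose, as did the mitochondrial ligase Marchf5 (2.25 ± 0.19), and Rnf128, a ligase known for T cell anergy, fell to a mean of 13320 ± 4100 units on Th1 arrays, against 105500 ± 31400 on untreated arrays (SD, n = 4 each). Of 14 genes of interferon signalling, 8 were called higher and 2 lower (median 1.21), led by the feedback inhibitors Socs1 (8.09 ± 0.41) and Socs3 (5.50 ± 0.36) and by Irf1 (4.34 ± 0.25) and Stat2 (3.23 ± 0.34). The adjusted p of the genes named from these lists lay under 0.01 in limma's test. After Th17 supernatant, 0 genes of any of these lists were called, and the medians of the lists lay between -0.04 and 0.10.

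**Figure D4:**
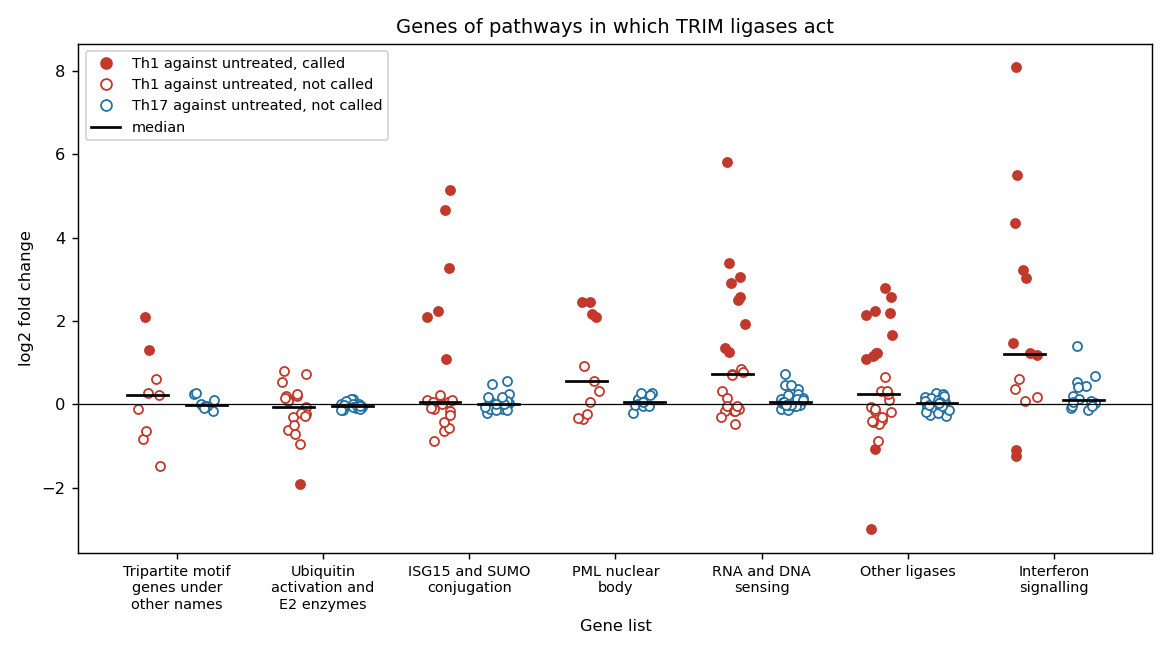
Log2 fold change of each gene (points) of 7 pathway lists after Th1 supernatant (left of each pair) and Th17 supernatant (right) against untreated; filled points were called and black lines are medians. The Th1 medians run from -0.07 (E2 enzymes) to 1.21 (interferon signalling), and no Th17 point is filled.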

How the data were processed

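RNA from each of the 12 cultures was measured on its own one-colour (Cy3) Agilent array, with 4 arrays per slide. Per the file headers, the authors read the deposited intensity values with Agilent Feature Extraction 10.7.3.1 (annotation build mm9), as background-subtracted signal not scaled between arrays. A deposited value table holds log2 values of the same arrays, with scale, centring and direction unstated. Set against the scanner signals, it matched log2 signal scaled to the 75th percentile without the quantile step and centred on each probe's median, in the same direction (r of at least 0.99999 on each array over 15170 bright probes, column medians -0.225 to 0.18). It served as an alternative.

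Spots flagged by hand or marked as outliers by the scanner software were left out (103 to 230 per array), spots of a probe were averaged by the geometric mean, and values were quantile normalised, scaled to a 75th percentile of 1500, floored at 15 and log2 transformed. These steps follow the study's methods, which also left out spots by distance from the other copies of a probe and by pixel variation, and normalised these arrays together with astrocyte arrays. None of that was done here. Probes well above background on at least 4 arrays were kept. Accessions gave symbols through a RefSeq table (GRCm38.p6, names and order only) for 27234 of 39429 probes. Each gene was taken from its brightest kept probe. Limma 3.58.1 in R 4.3.3 fitted 1 mean per group over all 12 arrays, with Benjamini-Hochberg adjustment over 19802 genes, and was tested on simulated data. A gene was called at an adjusted p under 0.01 and over 2-fold. Changes are log2 fold changes ± SE. The number of arrays limits the precision. Where a gene was below background throughout a group, its fold is the bright group's mean over a background level of the dim group. That level is the mean of the lowest signal well above background on each array, or the gene's own signal where higher. The fold depends on that level and on the floor, and is not a strict bound.

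The experiment numbers 12, 13, 14 and 16 come from the titles, and the study describes 4 independent experiments. Deviations of same-numbered arrays from their group means correlated across genes at 0.244 to 0.634, and other arrays of different groups at -0.422 to 0.123, so the numbers were taken as pairs. The fit without the block was kept as the main one. Alternatives covered the experiment and slide as blocks, normalisation, background, floor, filter, probe choice, thresholds and each array left out. Normexp on the median signal was added after the data were seen, since the files used here have no mean signal column.

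The members and lists were chosen with earlier results of these data known. Each TRIM gene called in at least 1 comparison is named with values, and of other lists at most 4 called genes of largest change. Trim25, Trim26, Trim46, Trim56, Trim28 and Trim33 were named beside them after their values were seen, as were the genes shown on Th17 13 and untreated 14.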

Additional observations from a re-analysis of the deposited data

Results flagged for a closer look

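In the called TRIM genes, 4 group and array combinations stood apart, by the gap to the nearest array of the same group taken over the whole range of the group. The test covered 43 groups of 4 arrays, over 15 genes, leaving out 1 group with 3 values and 1 with every array at the floor, and chance alone flags about 1 in 20 groups.

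Trim34b read 339.2 on Th1 16, with the other Th1 arrays between 700.8 and 774.1. Trim34a read 3915 on the same array, with the others between 5548 and 5727. Trim30b read 21.19 on Th17 13, where the other Th17 arrays were at the floor of 15. Trim36 read 200.6 on untreated 14, with the others between 305.2 and 314.1.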

How the results depend on the processing

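The 4 falls and the rises of Trim30b, Trim30d, Trim30a, Trim34a, Trim21 and Trim12a kept their direction and call against untreated under all 27 alternatives, except that Trim36 fell by 0.86 and lost its call with normexp on the median signal. No called TRIM gene reversed. Trim3 also kept its call against untreated, and lost it against Th17 without experiment 14 (0.96). Against untreated, Trim9 lost its call under 18 alternatives, Trim34b under 7, Trim14 under 6 and Trim12c under 5. Against Th17, Trim9 lost it under 12 (adjusted p up to 0.131) and Trim34b under 7 (up to 0.0337). Against untreated, Trim9 gave 0.32 with a floor of 50 (adjusted p = 0.13, range over its alternatives up to 0.13) and Trim34b gave 1.30 with the value table (adjusted p = 0.125, the highest of its alternatives).

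TRIM genes called higher after Th1 supernatant numbered 7 with the deposited value table, against 11. Without quantile normalisation they numbered 8. At any fold change, 9 were lower than untreated and 9 lower than Th17. With each array left out, 7 to 11 were higher and 4 lower against untreated, and 7 to 10 higher and 4 to 5 lower against Th17. The count of 7 against untreated came without Th1 12, where Trim34b, Trim9, Trim14 and Trim12c were lost, and it keeps 3 Th1 arrays. Against Th17, 6 were higher without experiment 14. With experiment as a replicate block, 12 were called higher and 4 lower against untreated (Trim46 added) and 10 and 4 against Th17, and no other call changed. Over all genes, 1083 were higher and 988 lower against untreated with normexp, and 2749 and 3208 at any fold, against 1484 and 1560. Th17 against untreated gave 0 TRIM calls under each alternative. Normexp on the mean signal was not run. The causes of these shifts were not tested. Dim genes such as Trim9, Trim14 and Trim46 lie close to background, which limits their fold changes.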
